A study of Mus musculus with 8 samples.

Results

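Tbx15 and 7 further transcription factors of the muscle lineage were followed in the lumbar spinal cord: Tbx18, a close T-box relative of Tbx15, the paired-box factors Pax3 and Pax7, and the 4 myogenic basic helix-loop-helix factors Myod1, Myf5, Myf6 and Myog. The 8 genes are 8 of the 55291 in the count table. Tbx15 was chosen by its call in the genotype contrast, as 1 of the 14 genes among 19470 tested (0.0719%) that the exact test in edgeR called (adjusted p = 0.00352), so its genotype difference is given here as a description and supports nothing. The other 7 were taken as the factors that direct skeletal muscle or resemble Tbx15.

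The samples were lumbar cords of 8 male C57BL/6 mice, all carrying the SOD1 G93A transgene, a model of amyotrophic lateral sclerosis. In 4 mice the gene Ager, which encodes the receptor RAGE, carried loxP sites on both alleles (Ager fl/fl Cx3cr1 Cre/+, called Ager-deleted: E1776, E5231, E5248, E5568), and in 4 it was unmodified (Ager +/+ Cx3cr1 Cre/+, called Cre-expressing controls: E5386, E5642, E6578, E6732). The tamoxifen-inducible Cre is knocked into Cx3cr1, a gene of microglia and other mononuclear phagocytes, so all 8 mice had 1 disrupted Cx3cr1 allele, and all 8 received tamoxifen, in 5 daily injections at 12 weeks of age per the labels, while the study's text gives a somewhat later age. The labels also give an age of 120 days at collection, whereas the study's text places this tissue at end-stage.

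Skeletal muscle is built under a cascade of these factors. Pax3 and Pax7 mark muscle progenitors and, in the embryo, the dorsal neural tube. Myf5 and Myod1 commit cells to the muscle lineage, Myog drives their differentiation and Myf6 is prominent in mature fibers, all by binding E-boxes next to genes such as Myh4, the fastest myosin heavy chain, and Ckm, the muscle creatine kinase. Tbx15 is known from fast glycolytic fibers and from fat cells of particular depots, and Tbx18 from pericytes and vascular smooth muscle. A spinal cord has no skeletal muscle of its own.

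Total counts ranged from 31148047 to 40324897 per mouse, and 3 counts, taken as the detection floor, corresponded to 0.0729 to 0.0975 CPM, the unit used throughout for counts scaled to library size with edgeR's TMM factors. Floors and count intervals cover counting error only. Ager itself was at 35 to 56 counts in deleted mice and 56 to 99 in controls. In whole cord this gave ranges of 0.889 to 1.51 and 1.53 to 2.41 CPM, which narrowly did not overlap. Every control lay above every deleted mouse in 1.91% of all genes tested. Ager was not called (log2 fold change 0.81, exact test in edgeR, adjusted p = 0.252), though it was in the fit without E5386 (0.94, adjusted p = 0.0442). The spinal cord list was present throughout (summed level 25944 to 31315 CPM over 12 genes, Hox10 genes included). Of the 4 controls, 3 stood apart in genes of other tissues. E5386 and E5642 had summed fast sarcomere levels of 1004 and 1532 CPM against 21.0 to 39.5 CPM in the other 6 mice. E5386 also had the highest fat list (337 CPM) and the lowest Schwann cell list (212 CPM against 539 to 1467 CPM). E6732 had 736 CPM of liver genes against 2.82 to 3.59 CPM elsewhere. Values without E5386 and E5642 are given beside the results that rest on them. Leaving out E6732 alone gave log2 fold changes of 3.91 for Tbx15 and 0.62 for Tbx18, against 3.62 and 0.86 in all mice.

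Tbx15 (chr3:99240381-99354259, plus strand, GRCm38) was scarce in every Ager-deleted mouse and at several different levels in the controls. Its counts were 6 in E1776, 3 in E5231, 6 in E5248 and 2 in E5568, and 89 in E5386, 79 in E5642, 12 in E6578 and 19 in E6732. All 4 controls stood above all 4 deleted mice, with E5386 and E5642 far above the other pair. On the CPM scale the means were 0.114 ± 0.056 in deleted mice and 1.43 ± 1.16 in controls (SD, n = 4 each), a log2 fold change of 3.62 (SE 0.74). The filter on low counts asked for more than about 0.274 CPM in 4 mice. Tbx15 reached that only through its 4 controls. With all deleted mice below that level, it could be tested only because the controls were higher. Every control lay above every deleted mouse in 372 of the 19470 genes (1.91%). An antisense gene inside Tbx15, Gm43120, had 0 or 1 counts per mouse.

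The size of the difference in Tbx15 depended on E5386 and E5642. Its direction could not change when mice were left out, since all controls lay above all deleted mice, and the gene was chosen by its call in this contrast. Without E5386 and E5642, 12 and 19 counts remained against 2 to 6, the log2 fold change was 1.90, and Tbx15 was no longer among the called genes (exact test in edgeR, adjusted p = 0.0545). It also left the called genes without deleted mouse E5231 (3.49, adjusted p = 0.0584) or E5568 (3.38, adjusted p = 0.0574), and under the quasi-likelihood test (adjusted p = 0.705) or limma-voom (adjusted p = 0.805). Those 2 tests each called 1 gene of 19470, and 0 higher in controls. Tbx15 stayed called under DESeq2 (adjusted p = 0.000646) and without any other single mouse (exact test in edgeR, highest adjusted p = 0.0472, without E5642). These calls reuse the values on which Tbx15 was chosen. In whole tissue, more cells that carry a transcript and more transcript per cell cannot be told apart, for this gene and all those that follow.

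**Figure D1:**
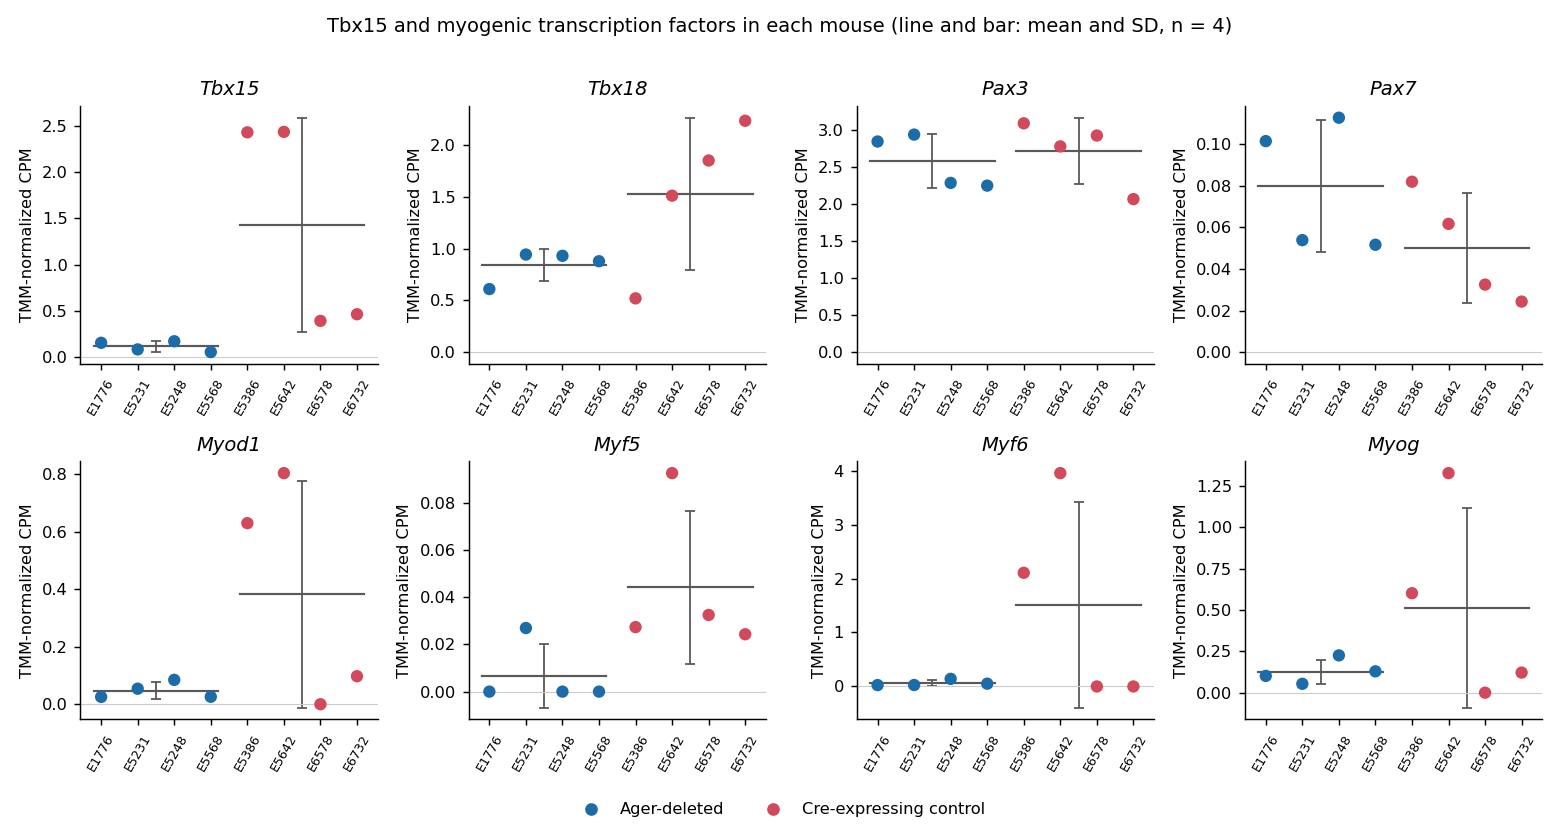
TMM-normalized CPM (y axis, linear, a scale for each gene) of the 8 factors in each mouse (x axis), with blue points for Ager-deleted mice, red points for Cre-expressing controls, and the mean and SD of each genotype (n = 4). For Tbx15 all 4 controls lie above the deleted mice, for Myod1, Myf6 and Myog only E5386 and E5642 stand clear, and for Pax3 the genotypes interleave.

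Of the 8 factors, 3 passed the filter (Tbx15, Tbx18 and Pax3). Tbx18 (chr9:87702800-87731260, minus strand) had 24, 35, 33 and 34 counts in E1776, E5231, E5248 and E5568, and 19, 49, 57 and 92 counts in E5386, E5642, E6578 and E6732. Control E5386 was the lowest of all 8 mice and the other 3 controls were the highest. The means were 0.841 ± 0.157 CPM in deleted mice and 1.53 ± 0.74 CPM in controls (SD, n = 4 each), and the log2 fold change of 0.86 (SE 0.37) did not pass the exact test in edgeR (adjusted p = 1). Without E5386, the lowest control, it passed (1.17, adjusted p = 0.00824), in a fit that called 72 of 19716 genes. It also passed without both E5386 and E5642 (1.30, adjusted p = 0.0049), a fit that called 67 of 20141 genes (0.333%). Leaving out any other single mouse, it did not pass (lowest adjusted p = 0.767, without E5248). Nor did it pass in all mice under the other tests (lowest adjusted p = 0.674, DESeq2).

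Pax3 (chr1:78101267-78197134, minus strand) was the most even of the 8. It had 112, 109, 81 and 87 counts in the 4 deleted mice and 113, 90, 90 and 85 counts in the 4 controls, in the order used for Tbx18. The ranges overlapped almost wholly, with means of 2.58 ± 0.36 and 2.72 ± 0.45 CPM (SD, n = 4 each) and a log2 fold change of 0.07 (SE 0.17, exact test in edgeR, adjusted p = 1). Pax7 (chr4:139737062-139833528, minus strand), the marker of satellite cells, the stem cells of adult muscle, had 2 to 4 counts per deleted mouse and 1 to 3 per control. With 12 counts against 7 over the genotypes, any difference in Pax7 was not detectable at this depth, and neither E5386 (3 counts) nor E5642 (2 counts) was raised.

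Myf5 and Myf6 are neighbors on chromosome 10, 6719 bp apart on the same strand, and gave opposite pictures. Myf5 (chr10:107482908-107486134) had 0 or 1 counts in each deleted mouse and 1, 3, 1 and 1 in the controls, at or below the floor in all 8 mice, so no fold change is given. Myf6 (chr10:107492853-107494737) had 1, 1, 5 and 2 counts in E1776, E5231, E5248 and E5568, 77 in E5386, 128 in E5642 and 0 in both E6578 and E6732. Its controls therefore held both the highest and the lowest values of the series, and a count of 0 allowed up to 0.0975 CPM in E6578 and 0.0729 CPM in E6732.

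Myod1 (chr7:46376474-46379099, plus strand) had 1, 2, 3 and 1 counts in E1776, E5231, E5248 and E5568, and 23, 26, 0 and 4 counts in E5386, E5642, E6578 and E6732. Myog (chr1:134289989-134292548, plus strand) had 4, 2, 8 and 5 counts in the same deleted mice, and 22, 43, 0 and 5 in the same controls. For both genes E5386 and E5642 were the highest and E6578 was the lowest, while E6732 lay near or among the deleted mice. None of these 3 factors could pass the filter, which required 4 mice. When all 38301 genes with a count were tested by the exact test in edgeR, 11 were called (0.0287%) and none of Myf6 (log2 fold change 4.56, adjusted p = 0.464), Myod1 (2.93, adjusted p = 0.665) and Myog (1.98, adjusted p = 1) was among them. The standard errors of these changes were 1.24, 0.89 and 0.81 in the quasi-likelihood fit without a filter.

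The E-box, read here as the letters CANNTG, is the element that the myogenic helix-loop-helix factors bind. Promoter sequences from RefSeq (GRCm38.p6) matched 4 of the 8 factors, Tbx18, Pax7, Myf5 and Myog, with Tbx15, Pax3, Myod1 and Myf6 unmatched. The 250 bases before the start are printed for Myog, for the sarcomere gene Myh4 and for Ckm, which were high in the same 2 mice, and for Tbx18, which was not, with CANNTG on either strand in capitals. The windows are chr1:134289754-134290003 (plus), chr11:67237562-67237811 (plus), chr7:19410844-19411093 (plus) and chr9:87731261-87731510 (minus). The starts are those of RefSeq and differ in part from the GENCODE gene positions given elsewhere. The Myog window runs past the GENCODE start at 134289989, and its second match lies inside that gene span. The windows of Ckm (GENCODE start 19404776) and Pax7 lie inside their GENCODE spans.
Myog: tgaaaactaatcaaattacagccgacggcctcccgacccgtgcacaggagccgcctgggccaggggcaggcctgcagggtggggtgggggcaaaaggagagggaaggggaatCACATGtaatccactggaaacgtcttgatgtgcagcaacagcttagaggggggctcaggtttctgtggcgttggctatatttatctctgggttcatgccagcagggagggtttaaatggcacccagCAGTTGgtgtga
Myh4: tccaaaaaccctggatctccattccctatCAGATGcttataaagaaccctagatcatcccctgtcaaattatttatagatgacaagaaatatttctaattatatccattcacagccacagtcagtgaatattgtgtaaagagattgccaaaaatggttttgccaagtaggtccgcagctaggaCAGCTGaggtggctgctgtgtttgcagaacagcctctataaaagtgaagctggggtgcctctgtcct
Ckm: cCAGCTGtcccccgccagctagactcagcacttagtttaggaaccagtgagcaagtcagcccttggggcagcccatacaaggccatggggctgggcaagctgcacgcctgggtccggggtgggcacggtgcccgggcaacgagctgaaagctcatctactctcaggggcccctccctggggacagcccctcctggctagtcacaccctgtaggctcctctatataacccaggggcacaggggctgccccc
Tbx18: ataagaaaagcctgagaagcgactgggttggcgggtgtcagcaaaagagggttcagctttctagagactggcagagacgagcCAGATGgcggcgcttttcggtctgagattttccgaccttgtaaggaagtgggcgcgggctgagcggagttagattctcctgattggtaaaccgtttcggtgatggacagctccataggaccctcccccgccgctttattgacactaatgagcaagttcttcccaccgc
Myog and Myh4 held 2 matches each, Ckm and Tbx18 1 each, and Pax7 and Myf5 held 0. At least 1 CANNTG was found in 66.0% of 27025 promoters of that length, so its presence did not set these genes apart. The letters CAGCTG, a form of the E-box contained in CANNTG, were found in Myh4 and Ckm and in 12.8% of all promoters. The letters AGGTGT, contained in the element that T-box proteins bind, occurred in none of these windows and in 12.0% of all promoters.

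Per kilobase of exon, the order of the mean levels was not the same in the 2 genotypes. In deleted mice Pax3 led at 0.417 ± 0.059 CPM per kb, followed by Tbx18 at 0.178 ± 0.033, Myog at 0.0854 ± 0.0485, Myf6 at 0.0485 ± 0.0432, Tbx15 at 0.0303 ± 0.015, Myod1 at 0.0255 ± 0.0151, Pax7 at 0.0137 ± 0.0054 and Myf5 at 0.0032 ± 0.0065 (SD, n = 4). The steps from Myog down to Pax7 were each smaller than the larger SD of the neighboring pair. In controls Myf6 had the highest mean, 1.2 ± 1.51 CPM per kb, then Pax3 at 0.439 ± 0.073, Tbx15 at 0.382 ± 0.31, Myog at 0.343 ± 0.403, Tbx18 at 0.324 ± 0.156, Myod1 at 0.205 ± 0.212, Myf5 at 0.0212 ± 0.0156 and Pax7 at 0.0086 ± 0.0045 (SD, n = 4). No neighbors in the controls' order differed beyond their spread. The lead of Myf6 rested on E5386 and E5642, at 1.67 and 3.13 CPM per kb, and it was at 0 in E6578 and E6732. In those 2 mice the order began as in the deleted mice with Pax3 (0.473 and 0.334 CPM per kb) and Tbx18 (0.393 and 0.474 CPM per kb), the latter leading in E6732, followed by Tbx15 (0.104 and 0.123 CPM per kb).

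Whether each factor follows the sarcomere genes was asked next. Myh4 had 22, 16, 18 and 47 counts in the deleted mice, against 3147 in E5386, 3138 in E5642, 19 in E6578 and 128 in E6732. Ckm had 16, 24, 27 and 47 counts in the deleted mice and 2738, 3696, 13 and 79 in the controls, in the same order. A sarcomere score, the mean log2(CPM + 1) over 31 of 38 listed sarcomere and muscle energy genes that passed the filter, was 4.91 in E5386 and 5.36 in E5642 and lay between 1.50 and 1.91 in the other 6 mice. Because the mice fell into 2 separate groups, no correlation with the score was computed over all 8.

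Across the gap between these groups, Myf6, Myod1, Myog and Tbx15 were all higher in the 2 high-score mice than in any other mouse. Tbx18 and Pax3 were not, since E6578 and E6732 exceeded both mice for Tbx18 and deleted mice exceeded E5642 for Pax3. Within the 6 mice of low score, 4 factors had enough counts for a correlation with the score (exact permutation tests, two-sided, adjusted over 4 relations). For Tbx15, Pearson's r was 0.03 (exact p = 0.961, adjusted p = 0.961) and Spearman's rho was 0.14 (exact p = 0.803, adjusted p = 0.803). For Tbx18, r was 0.38 (exact p = 0.471, adjusted p = 0.628) and rho was 0.43 (exact p = 0.419, adjusted p = 0.559). For Myog, r was 0.54 (exact p = 0.271, adjusted p = 0.542) and rho was 0.60 (exact p = 0.242, adjusted p = 0.483).

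Pax3 was the only factor with a low unadjusted p, and it ran against the score (r = -0.87, exact p = 0.0236, adjusted p = 0.0944; rho = -0.77, exact p = 0.103, adjusted p = 0.411). None of the 4 relations passed after adjustment. Without the 2 mice farthest from the median score, E1776 and E6732, r was -0.90 for Tbx15, -0.96 for Tbx18, -0.78 for Pax3 and 0.83 for Myog over 4 mice, so the values for Tbx15 and Tbx18 rested on those 2 mice.

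**Figure D2:**
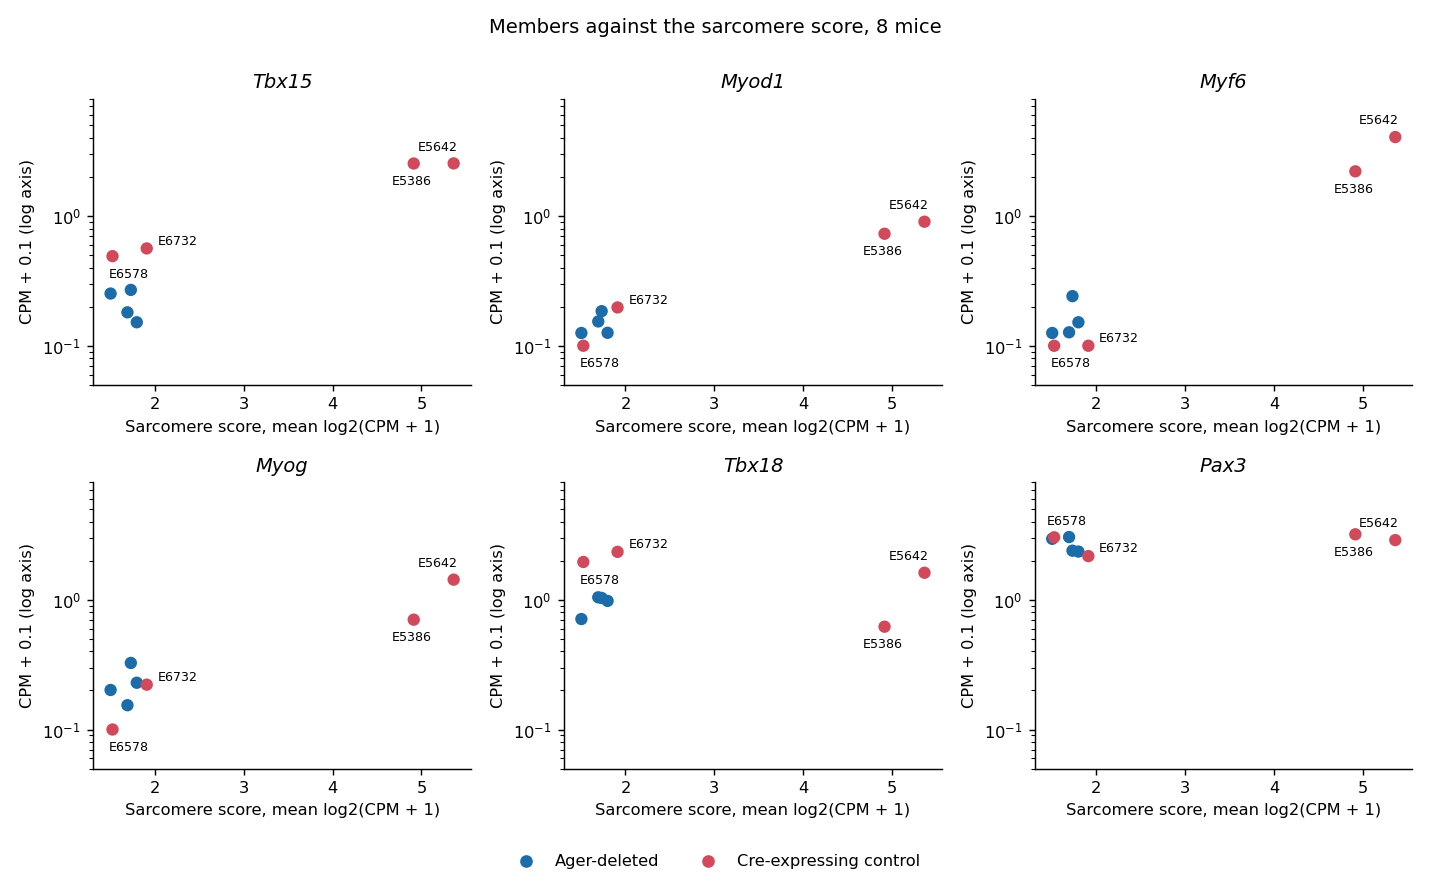
Level of 6 factors (y axis, CPM + 0.1, log axis) against the sarcomere score (x axis, mean log2(CPM + 1)) in 8 mice, blue for Ager-deleted and red for Cre-expressing controls. In E5386 and E5642, at scores of 4.91 and 5.36, Tbx15, Myod1, Myf6 and Myog are at their highest, and in E6578 and E6732, at 1.53 and 1.91, Tbx15 stays above the deleted mice while Myf6 does not.

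The ratio of Tbx15 to the sarcomere genes was not the same in all mice. Tbx15 made up 2.75% of the Tbx15 plus Myh4 counts in E5386 (exact Clopper-Pearson 95% interval 2.21 to 3.37%) and 2.46% in E5642 (1.95 to 3.05%), shares that overlapped. In E6578 it was 12 of 31 counts, or 38.7% (21.9 to 57.8%), and in E6732 19 of 147 counts, or 12.9% (7.96 to 19.4%). In the deleted mice it was 21.4% (8.3 to 41%) in E1776, 15.8% (3.38 to 39.6%) in E5231, 25% (9.77 to 46.7%) in E5248 and 4.08% (0.498 to 14%) in E5568, on 2 to 6 Tbx15 counts per mouse. In 5 of the 6 low-score mice, of both genotypes, the interval beside Myh4 lay above those of E5386 and E5642, in E5231 only just (from 3.38%, against up to 3.37%). In E5568 it overlapped them. Beside Ckm the shares were 3.15% (2.54 to 3.86%) and 2.09% in E5386 and E5642, and 48.0% (27.8 to 68.7%) and 19.4% (12.1 to 28.6%) in E6578 and E6732. Among the deleted mice, E1776 and E5248 lay above E5386 and E5642 beside Ckm. The intervals of E5231 (2.35 to 29.2%) and E5568 (0.498 to 14%) overlapped that of E5386. These intervals cover counting error only, not the spread between mice. Myh4 and Ckm are themselves in the score that split the mice. A higher share in low-score mice was therefore built in for any factor that changed less than they did. The shares show nothing particular to Tbx15.

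A higher share beside Myh4 in low-score mice was not particular to Tbx15, and it was not seen for every factor in every mouse. Pax3, the most even of the factors, was 3.47% of the Pax3 plus Myh4 counts in E5386 and 2.79% in E5642. In the low-score mice it was 39.9% (E6732) to 87.2% (E5231). Myf6 was 2.39% (1.89 to 2.98%) of the Myf6 plus Myh4 counts in E5386 and 3.92% (3.28 to 4.64%) in E5642, 0 of 128 in E6732, which allowed up to 2.84% by the exact interval, and 0 of 19 in E6578, which allowed up to 17.6%. In deleted mouse E5248 Myf6 reached 21.7% (7.46 to 43.7%), above both high-score mice. Its limit in E6732 lay below the interval of E5642, the opposite direction. In E1776, E5231, E5568 and E6578 the Myf6 interval overlapped those of both high-score mice. For Myod1 the share beside Myh4 was 0.726% (0.46 to 1.09%) in E5386 and 0.822% (0.537 to 1.2%) in E5642, and for Myog it was 0.694% (0.436 to 1.05%) and 1.35% (0.98 to 1.82%). The Myod1 share lay above those 2 mice in E5231 (11.1%, 1.38 to 34.7%) and E5248 (14.3%, 3.05 to 36.3%). Its interval overlapped theirs in E1776, E5568, E6578 and E6732. The Myog share was 15.4% (4.36 to 34.9%) in E1776, 30.8% (14.3 to 51.8%) in E5248 and 9.62% (3.2 to 21.0%) in E5568, all above those 2 mice. In E5231 (11.1%, 1.38 to 34.7%), E6732 (3.76%, 1.23 to 8.56%) and E6578 (0 of 19) the Myog interval overlapped that of E5642. When the sarcomere score entered the quasi-likelihood fit as a covariate, the log2 fold change of Tbx15 was 1.88, that of Tbx18 1.24 and that of Myh4, which is itself in the score, 1.34, each with an adjusted p of 0.999.

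**Figure D3:**
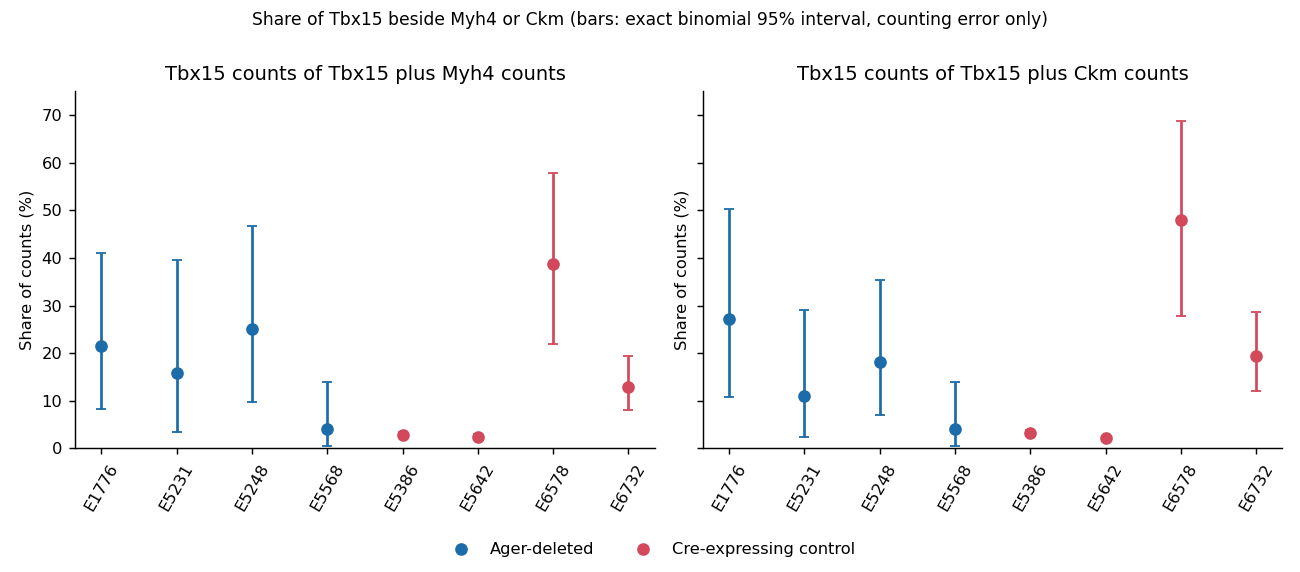
Share of Tbx15 counts (y axis, %) among Tbx15 plus Myh4 counts (left) or Tbx15 plus Ckm counts (right) in each mouse (x axis), with exact binomial 95% intervals that cover counting error only, blue for Ager-deleted and red for Cre-expressing controls. E5386 and E5642 sit at 2.09 to 3.15%, and E6578 is the highest in both panels at 38.7% and 48.0%.

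The genes whose pattern over the 8 mice was most like that of Tbx15 were muscle genes. Among 19469 tested genes compared by Pearson's r of log2(CPM + 0.5), as a description in which all points share the same libraries, the first 9 were Tmod4, Myl3, Sln, Myh4, Txlnb, Fsd2, Hjv, Rpl3l and Ldb3, with r of 0.96 to 0.97. Tmod4 caps thin filaments, Myl3 is a slow myosin light chain, Sln regulates the calcium pump, and Ldb3 organizes the Z-disc of the sarcomere. Tmod4, the first of them, had 24, 26, 21 and 15 counts in the deleted mice and 168, 155, 19 and 31 counts in E5386, E5642, E6578 and E6732. Ckm was at rank 17 (r = 0.96), Pax3 at rank 3236 (r = 0.39) and Tbx18 at rank 9240 (r = 0.02). By Spearman's rho, which weighs the order of the mice and not the height of the 2 high-score mice, none of these 9 stayed among the first 10, and Myh4 was at rank 651 (rho = 0.74) and Ckm at rank 1173 (rho = 0.64). Without E5386 and E5642, over 6 mice, none of the 9 stayed among the first 10 either, with r of 0.39 for Hjv to 0.77 for Ldb3 and 0.53 for Myh4, while Tbx18 was at rank 199 (r = 0.88).

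**Figure D4:**
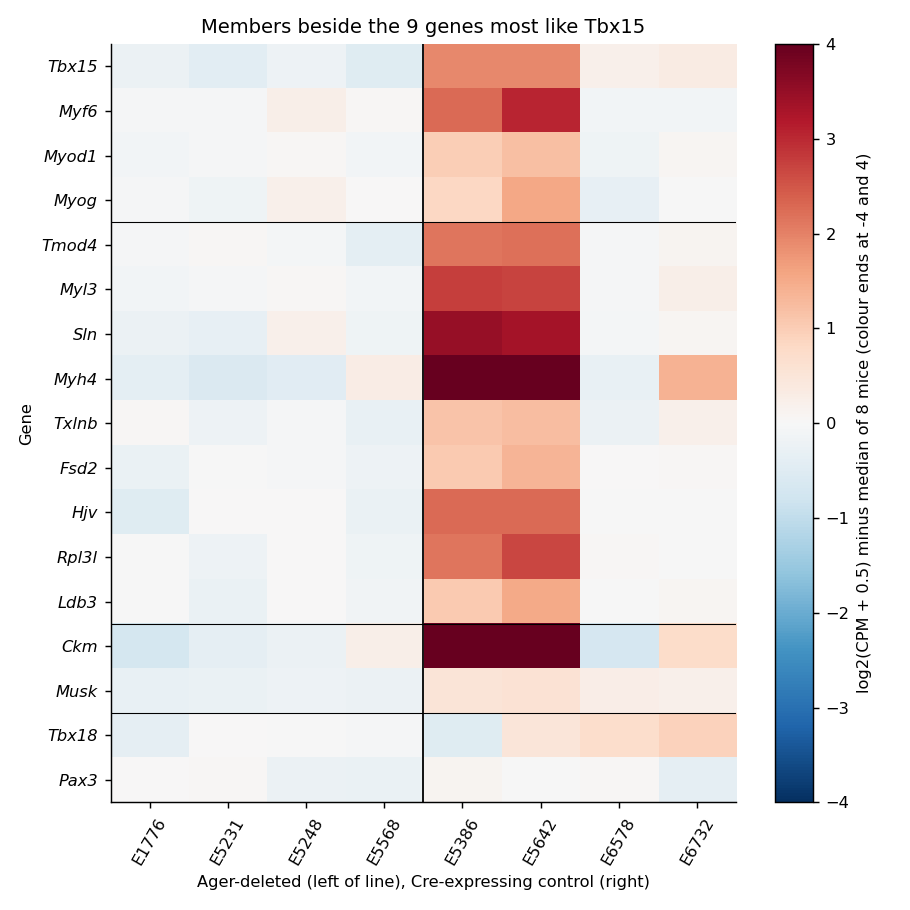
Heat map of log2(CPM + 0.5) minus the median of the 8 mice for 17 genes (rows) in each mouse (columns), with red above and blue below the median, and stronger colors stand for larger differences up to the end of the scale. Columns E5386 and E5642 are red for Tbx15, Myf6, Myod1, Myog, the 9 genes most like Tbx15 and Ckm, and the 2 rows at the bottom, Tbx18 and Pax3, do not show that pattern.

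Among the muscle lists, few genes were called, though the changes were large. Of 15 tested fast and general sarcomere genes, Myh4 was called higher in controls (log2 fold change 6.10, SE 1.40, exact test in edgeR, adjusted p = 0.0105), and the list's median log2 fold change was 4.63 beside -0.01 over all genes tested. Of 9 muscle calcium and energy genes, Ckm (5.97, SE 1.47, adjusted p = 0.0281) and the calcium pump gene Atp2a1 (6.39, SE 1.59, adjusted p = 0.0294) were called, with a median of 2.10. None of 7 slow sarcomere genes was called (median 1.26). The skeletal actin gene Acta1 reached 5.60 (adjusted p = 0.0503) and the fast myosin gene Myh1 6.57 (adjusted p = 0.0848). Without E5386 and E5642 none of the genes in these 3 lists was called, and the medians were 0.15, 0.05 and 0.01 for the fast, energy and slow lists. Single values in that fit were 1.47 for Myh4 (adjusted p = 0.884), 0.65 for Ckm (adjusted p = 1) and 0.52 for Atp2a1 (adjusted p = 1).

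The partners and progenitor markers moved less. None of 20 tested myogenic partners was called (median 0.09), including the Mef2 factors that act with the myogenic factors: Mef2a differed by 0.21 (SE 0.06, adjusted p = 0.836), Mef2c by 0.23 (SE 0.07, adjusted p = 0.871) and Mef2d by -0.06 (SE 0.05, adjusted p = 1). For Mef2a and Mef2c every control lay above every deleted mouse, as in 1.91% of all genes tested. Of the 11 genes on the satellite cell list, 1 was called, Musk (1.36, SE 0.24, adjusted p = 0.0209), and the median was 0.11. Musk is the receptor kinase of the neuromuscular junction, so its call is not one of a progenitor marker. Musk had 10, 10, 11 and 11 counts in the deleted mice and 30, 29, 19 and 23 in the controls, which like Tbx15, Mef2a and Mef2c left no overlap between the genotypes. Without E5386 and E5642 Musk was at 1.07 (adjusted p = 0.53). Megf10 and Itga7, which also serve glia, differed by 0.15 (SE 0.10) and 0.11 (SE 0.15).

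A partner below the filter, chosen after its values were seen, split as Myf6 did. Vgll2, a cofactor of muscle TEAD proteins, had 0 to 2 counts in deleted mice and 35, 60, 0 and 0 in E5386, E5642, E6578 and E6732.

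No other member of either family was called. The T-box list had 15 of 16 genes in the table and 6 tested, with a median of 0.08. Among the most abundant, Tbx1 differed by 0.04 (SE 0.23), Tbx2 by 0.12 (SE 0.22) and Tbx3 by -0.04 (SE 0.19), each with an adjusted p of 1. Of 7 other Pax genes 4 were tested, with a median of 0.00. Pax2, a factor of spinal interneurons, differed by -0.12 (SE 0.07) and Pax6 by 0.11 (SE 0.12), each with an adjusted p of 1.

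Tbx18 was set beside 2 lists of other cell types. Over the 8 mice, log2(CPM + 0.1) of Tbx18 rose with the mean level of 15 meningeal and connective fibroblast genes (r = 0.88, exact permutation p = 0.00139, adjusted p = 0.00278; rho = 0.88, exact p = 0.00724, adjusted p = 0.0145) while the relation with 12 pericyte and vascular muscle genes did not pass the test (r = 0.30, exact p = 0.465, adjusted p = 0.465; rho = 0.48, exact p = 0.243, adjusted p = 0.243). These 2 relations were chosen from 13 lists after the values were seen, and the adjustment covers only these 2. Their p-values therefore do not allow for that choice. Without the 2 mice farthest from the median fibroblast level, E5386 and E6732, r was 0.80, and for the pericyte list it was 0.30 without E5231 and E6578. Decorin (Dcn), the most abundant fibroblast gene, had 448 counts in E5386 and 2020 to 9551 in the other mice. The Schwann cell list was lowest in E5386 too, with a mean log2(CPM + 1) of 2.43 against 4.62 to 5.99 elsewhere. Its relation with Tbx18 was not tested, so the relation with fibroblast genes cannot be called particular to them.

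**Figure D5:**
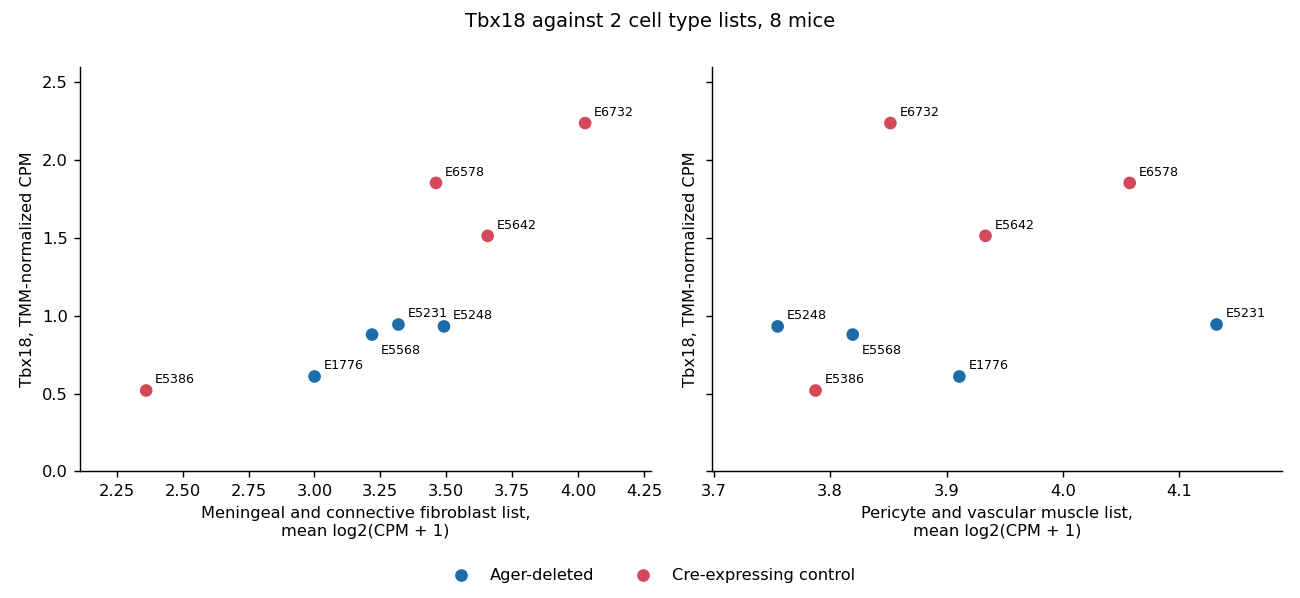
Tbx18 (y axis, TMM-normalized CPM) against the mean log2(CPM + 1) of the fibroblast list (left) and the pericyte list (right) in 8 mice, blue for Ager-deleted and red for Cre-expressing controls. On the left the points climb from E5386 at 0.52 CPM to E6732 at 2.24 CPM (r = 0.88), and on the right they scatter (r = 0.30).

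Lists of other tissues were read beside these results. None of 15 tested fibroblast genes (median 0.32), 12 pericyte genes (0.02), 8 Schwann cell genes (0.29), 6 fat genes (1.06), 4 liver genes (3.95) and 12 spinal cord genes (-0.04) was called in the full set of mice. Without E5386 and E5642, in the fit that called 67 of 20141 genes (0.333%), the fibroblast median was 0.71 with Dcn called higher in controls, as was Tbx18. The Schwann cell gene Pmp2, Pck1 of the fat list and 4 of 4 liver genes were called higher in controls too. The liver and Pck1 calls rested on E6732 alone, with 18600 counts of Alb and 785 of Pck1 there against 3 and 6 in E6578. The part of fibroblast, Schwann cell, fat and liver genes in the Tbx15 and Tbx18 results was not tested.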

How the data were processed

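RNA of the lumbar cord of 8 mice was sequenced from a stranded library of polyadenylated RNA. Per the labels and the study's methods, the authors trimmed reads (Trimmomatic 0.36), aligned them to mm10 (STAR 2.7.3a) and deposited raw counts per gene (featureCounts of Subread 1.6.3, GENCODE M25). The strand setting is not given in the sources used here. The deposited log2 values are TMM-normalized log2 CPM. They were recomputed from the counts to within 4.78e-06 (prior count 2) and used for nothing else.

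Genes were filtered with filterByExpr (minimum 10 counts), which left 19470 of 55291, normalized by TMM and tested with edgeR 4.0.16 (R 4.3.3), with exactTest, which the study's methods name, and dispersions from estimateDisp without a design matrix, a step those methods do not describe. P-values were adjusted by Benjamini-Hochberg over all genes tested at a threshold of 0.05. Log2 fold changes are controls over Ager-deleted mice, and their standard errors are from the quasi-likelihood fit. The alternatives were the quasi-likelihood test, DESeq2 1.42.0, limma-voom (limma 3.58.1), other dispersions, normalizations, filters and pseudocounts, the score as a covariate and each mouse left out. Fits without E5386 and E5642, the quasi-likelihood fit without a filter, the likeness to Tbx15 without E5386 and E5642, and the Tbx18 relations were added after seeing the data. The scripts were tested on simulated data. Correlations were tested by exact two-sided permutation (scipy 1.17.1). Total counts ranged from 31148047 to 40324897 per mouse, which sets the floor of 3 counts.

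The 8 factors and the 13 gene lists were chosen with earlier results of these data known. The genes named are the factors, Myh4, Ckm and Ager, the 9 genes most like Tbx15 (the rule took 10; 1 is not reported here), and, of each list, those called and some of the most abundant. Others are said to have been chosen after their values were seen. Positions and exon lengths are from GENCODE M21 (GRCm38, the assembly of mm10), matched by symbol.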

Additional observations from a re-analysis of the deposited data

How the results depend on the processing

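The number of genes called between the genotypes moved with the method more than the named values did. It was 14 in the test reported, 1 by the quasi-likelihood test and by limma-voom, 25 by DESeq2, 78 with common and tagwise dispersions, 8 with a filter of 1 CPM in 4 mice and 67 without controls E5386 and E5642. Leaving out 1 mouse gave 3 (without E5231) to 98 (without E6578). The log2 fold change of Tbx15, whose direction the choice of the gene fixed, was between 3.24 and 3.93 with 1 mouse left out, 1.88 with the sarcomere score as a covariate and 1.90 without both high-score controls. That of Tbx18 was positive in all 19, from 0.62 (without E6732) to 1.17 (without E5386) with 1 mouse left out and 1.30 without both high-score controls. Tbx15 could not be fitted under the filter of 1 CPM in 4 mice, and neither could Tbx18. Pax3 stayed between -0.05 and 0.18 in 20 alternatives and was called in none.

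In the 6 low-score mice, Pax3 against Ckm alone gave r = -0.89 (exact permutation, adjusted p = 0.0444), the only 1 of 12 alternatives past the threshold. Against Myh4 alone r was -0.76 (exact permutation, adjusted p = 0.139). Against the score it was -0.98 to -0.77 with 1 mouse left out (lowest adjusted p = 0.0667, without E5231). With 1 mouse left out r ran from -0.71 to 0.40 for Tbx15, from -0.17 to 0.87 for Tbx18 and from 0.23 to 0.71 for Myog, none past the threshold. Of the 10 genes most like Tbx15, 6 remained with a pseudocount of 0.1 CPM, 6 with 2 CPM, and 0 by Spearman's rho and without E5386 and E5642. No paired analysis was possible because the mice carry individual IDs and the genotypes share no replicate numbers. Depth limits Pax7 and Myf5, whose counts of 0 to 4 per mouse could not show a difference, and with 4 mice per genotype the SD of the controls exceeded their mean for Myod1, Myf6 and Myog.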
